A study of Mus musculus with 11 samples.

Results

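The interferon-stimulated genes described here are 32 named genes: antiviral effectors that interferons induce, the RNA sensors and ubiquitin-like machinery induced with them, and the transcription factors that drive them. They were found by gene name in the count table, where 31 of the 32 had a row, among 32285 genes in all. All 31 passed the filter on low counts, as did 15093 genes in total. Mx1 had no row of that name and was not analysed here. The RNA came from islets of 16-week-old mice on a high-fat diet for 4 weeks, and each library held islets of no fewer than 3 animals of a single genotype. The 4 groups were 3 libraries labelled βZKO_Mip, the beta cell knockout of Zzef1, with azoramide, 2 labelled βZKO_Mip with DMSO, 3 littermate control libraries with azoramide and 3 control libraries with DMSO. Azoramide, a small molecule known to modulate the unfolded protein response, was applied at 10 µM for 24 h, and DMSO is its solvent. The labels spell out neither Mip nor whether the controls carry a Cre transgene. They also do not tie libraries to animals, so p-values measure only the spread between these libraries.

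Type I interferons reach a cell through surface receptors whose kinases, JAK1 and TYK2, phosphorylate transcription factors such as STAT2. With IRF9 this takes part in a complex that binds the interferon-stimulated response element (ISRE) in the promoters of its targets. A second element, the interferon gamma-activated sequence (GAS), is known from genes that interferon gamma induces. The products block viral RNA and proteins, tag proteins with ISG15 and sense further RNA, and in human islets their induction is known from type 1 diabetes.

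The libraries held 16832800 to 19501813 counts each, and levels are given as CPM, counts scaled to a common library size by TMM. Beta cell markers were the largest of the cell type lists, at a summed level of 130209 to 192980 CPM, and all 10 lay above 1 CPM. Zzef1 went against a knockout in 1 of the 2 treatments: it was at 72.1, 77.7 and 68.7 CPM in labelled knockout libraries with azoramide, against 68.1, 64.3 and 67.4 CPM in control libraries with azoramide. With DMSO it was at 79.4 and 83.5 CPM in labelled knockout libraries, against 85.4, 109.7 and 96.5 CPM in control libraries. The libraries labelled knockout were thus the higher ones with azoramide and the lower ones with DMSO (log2 difference 0.13, SE 0.079, adjusted p = 0.968, with azoramide, and -0.26, SE 0.087, adjusted p = 0.999, with DMSO, neither past the threshold), and every direction drawn from genotype below rests on the label.

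Promoter sequences are shown first because some of them hold the ISRE. RefSeq windows on GRCm38.p6, from 250 bases before the start to 50 after it, were found for 25 of the 31 genes; Usp18, Dhx58, Parp9, Parp14, Rtp4 and Ifi27 had no entry. The ISRE core, GAAANNGAAA or TTTCNNTTTC on the other strand, occurred in 12 of the 25 genes (48.0%), against 3.99% of all 27025 genes with a window. Counted by window it was 12 of 29, against 3.44% of all 32851. The 5 sequences below of Isg15, Bst2, Ifit1, Oas1a and Rsad2 belong to genes that rose with azoramide in at least 1 genotype, and those of Ifit3 and Gbp2 to genes with the same core that were not called. Each is written 5′ to 3′ on the strand of its gene, with the letters of the core, or of overlapping cores, in capitals.
Isg15: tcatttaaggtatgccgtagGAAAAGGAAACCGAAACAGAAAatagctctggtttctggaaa
Bst2: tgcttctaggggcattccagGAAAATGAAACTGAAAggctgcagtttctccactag
Ifit1: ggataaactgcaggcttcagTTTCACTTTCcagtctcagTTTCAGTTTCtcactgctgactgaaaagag
Oas1a: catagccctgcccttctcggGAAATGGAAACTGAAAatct
Rsad2: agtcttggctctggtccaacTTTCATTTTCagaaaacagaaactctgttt
Ifit3: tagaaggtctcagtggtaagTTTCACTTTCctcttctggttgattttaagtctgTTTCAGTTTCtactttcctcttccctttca
Gbp2: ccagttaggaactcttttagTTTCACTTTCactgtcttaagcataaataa
Isg15 (chr4:156200855-156200916, minus strand) held 3 overlapping cores, and Bst2 (chr8:71537567-71537622, minus strand) and Oas1a (chr5:120907526-120907565, minus strand) held 2 each that overlap. Ifit1 (chr19:34640765-34640833, plus strand) and its neighbour Ifit3 (chr19:34583353-34583436, plus strand) held 2 separate cores, and Rsad2 (chr12:26456543-26456592, minus strand) and Gbp2 (chr3:142620584-142620633, plus strand) held 1 each. Stat2, Gbp3 and Gbp7 also held the core before the start, and Ifih1 and Ddx58 after it. The GAS core TTCNNNGAA, which reads alike on both strands, occurred in 6 of the 25 (24.0%), against 9.55% of all genes with a window: Irf1, Ifit2, Oas1a, Gbp7, Bst2 and Ifi35, and in Bst2 it overlapped the first ISRE core. Of the 12 genes with the ISRE core 7 were called higher and 0 lower in at least 1 of the azoramide comparisons; of the 13 without it 3 were called higher, namely Samd9l, Ifi44 and Xaf1, and 2 lower, Trim25 and Dtx3l. Of the members without an entry, Usp18, Rtp4 and Ifi27 were called higher in both genotypes and Parp9 in control islets. Dhx58 and Parp14 were not called. Whether any of these holds the core is not known here. Of all genes tested 23.4% were called higher and 24.1% lower in at least 1 of the azoramide comparisons. Among 433 tested genes with the core these shares were 27.7% higher and 16.4% lower, and among 11114 with a window and no core 24.4% higher and 25.2% lower. These matches describe letters in a window and do not show binding.

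With azoramide, part of the family rose in both genotypes. In labelled knockout islets 11 of the 31 were called higher and 2 lower by edgeR's quasi-likelihood test (adjusted p below 0.05), against 20.0% called higher and 19.8% called lower of all genes tested. Control islets gave the same counts, 11 higher and 2 lower, against 19.3% called higher and 19.8% called lower of all genes. The median log2 fold change of the 31 was 0.37 in labelled knockout islets and 0.44 in control islets, against -0.0032 over all genes in labelled knockout islets and -0.020 in control islets. Changes are given below as log2 fold changes of azoramide over DMSO from this fit. In 14 of the 31 every azoramide library lay above every DMSO library in labelled knockout islets (30.2% of all genes), and in 20 of the 31 in control islets (23.8% of all genes). Usp18, Ifit1, Oas1a, Bst2, Samd9l, Rtp4, Ifi44 and Ifi27 were called higher in both genotypes, and Trim25 and Dtx3l lower in both. Isg15, Ddx58 and Xaf1 passed only in labelled knockout islets and Ifih1, Parp9 and Rsad2 only in control islets. The difference in the azoramide effect between genotypes passed the test for none of these 6, since that test called 0 of the 31 and 0 of all genes (0% called; edgeR, with 0 of the 31 and 563 of all genes at an unadjusted p under 0.05, and 0 calls by DESeq2). The remaining 15 passed in neither genotype. The 4 groups enter several comparisons at once, so these share libraries. Of the 26 calls, 10 held in all 20 alternative analyses, those of Bst2, Samd9l, Ifi27 and Trim25 in both genotypes, of Usp18 in control islets and of Dtx3l in labelled knockout islets. Plain library totals in place of TMM moved the median of all genes to -0.16 in labelled knockout islets and -0.19 in control islets. The calls over all genes in labelled knockout islets were then 1866 higher and 4542 lower, against 3014 higher and 2992 lower with TMM. In control islets they were 1628 higher and 4943 lower, against 2908 higher and 2985 lower with TMM. Under plain totals 6 members were called higher and 3 lower in labelled knockout islets and 6 higher and 5 lower in control islets, and under both scalings the median of the 31 lay above that of all genes by 0.38 in labelled knockout islets and 0.46 in control islets. Under an offset for gene length and GC content 6 members were called higher in labelled knockout islets and 7 in control islets, and with only the groups compared in the fit 7 in labelled knockout islets and 17 in control islets. All genes gave 1962 higher in labelled knockout islets and 1884 in control islets under the offset. In the fit of only those groups they gave 3089 higher in labelled knockout islets and 2823 in control islets. In labelled knockout islets 7 members were called higher without labelled knockout azoramide library 2, 6 without labelled knockout DMSO library 1 and 4 without its library 2. All genes gave 2540 higher without that azoramide library, 2174 without DMSO library 1 and 2074 without DMSO library 2, against 3014 with every library. In control islets 17 were called higher without labelled knockout azoramide library 2, whose spread enters the shared estimate, 7 without any single control azoramide library, and 6 without control DMSO library 1. All genes gave 2873 higher in the first of these cases, 2398 to 2621 without a control azoramide library and 2478 without control DMSO library 1, against 2908 with every library. In the same islets 1 was called lower on leaving out library 3 of either control group. All genes gave 2422 lower without control azoramide library 3 and 2611 without control DMSO library 3, against 2985 with every library.

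**Figure D1:**
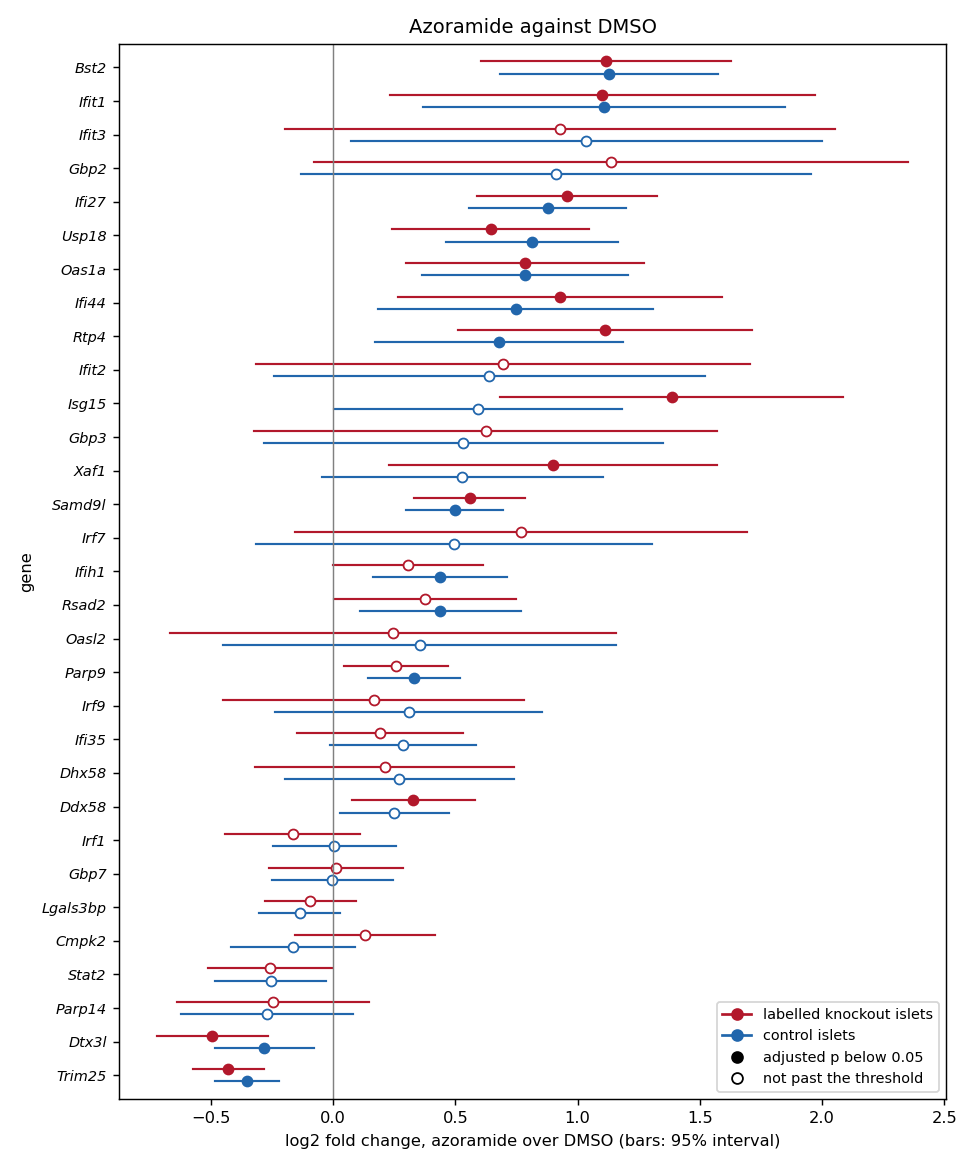
Log2 fold change of azoramide over DMSO for each of the 31 genes (horizontal axis), with 95% intervals, in labelled knockout islets (red, upper of each pair) and control islets (blue, lower); filled points have an adjusted p below 0.05. In labelled knockout islets Bst2 lies at 1.12 and Trim25 at -0.43, and in control islets Bst2 lies at 1.13 and Trim25 at -0.35.

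Among the ligands of the pathway, 8 of 10 listed interferon genes had no read in any of the 11 libraries. Ifnb1, interferon beta, had 6, 1 and 0 reads in the control azoramide libraries and 0 in the 8 others, and Ifne had 1 read in all. A count of 0 allows up to 3 counts, or 0.154 to 0.178 CPM depending on the library, and this covers counting error only. Of 11 receptor and JAK-STAT genes, 2 were called higher and 2 lower in labelled knockout islets (18.2% each, against 20.0% and 19.8% of all genes). In control islets 1 was called higher (9.09%, against 19.3% of all genes) and 2 lower (18.2%, against 19.8%). As 1 gene is 9.09% of the list, no difference is read from these shares. Ifnar2, a subunit of the type I interferon receptor, rose by 0.50 in labelled knockout islets (adjusted p = 7.97e-04) and 0.55 in control islets (adjusted p = 1.31e-04). Tyk2, the kinase at the other subunit, fell, with changes of -0.61 in labelled knockout islets (adjusted p = 2.14e-04) and -0.56 in control islets (adjusted p = 1.89e-04). Both calls were lost with an offset for gene length and GC content (-0.18 in labelled knockout islets, adjusted p = 0.246, and -0.18 in control islets, adjusted p = 0.186). Ifngr2, a subunit of the interferon gamma receptor, rose in labelled knockout islets (0.50, adjusted p = 0.00462), a call lost on leaving out library 1 (0.43, adjusted p = 0.0634) of labelled knockout DMSO. Jak1, the kinase that all interferon receptors use, was called lower there (-0.23, adjusted p = 0.0109), a call lost under the length and GC offset (-0.12, adjusted p = 0.170) or on leaving out libraries 1 (-0.22, adjusted p = 0.0706) and 2 (-0.23, adjusted p = 0.0614) of labelled knockout DMSO in turn. Stat3, which other cytokines use, was called lower in control islets (-0.23, adjusted p = 0.0201), a call lost under the length and GC offset (0.081), in a fit of the 2 groups alone (-0.22), on leaving out control DMSO library 2 together with labelled knockout azoramide library 3 (-0.14) or on leaving out libraries 1 (-0.19) and 3 (-0.20) of control azoramide and library 2 (-0.14) of control DMSO in turn. The adjusted p was then 0.0565 to 0.501.

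The transcription factors among the members passed in neither genotype. Irf7, the interferon regulatory factor that amplifies the response and the highest of the 4 per kilobase, was at 79.4, 134 and 52.3 CPM in labelled knockout islets with azoramide, against 59.6 and 44.3 CPM with DMSO. Its control libraries were at 73.1, 102 and 93.3 CPM with azoramide, against 50.7, 66.6 and 73.1 CPM with DMSO. The labelled knockout groups overlapped, with azoramide library 2 far above and library 3 below a DMSO library, while the control groups were separated by a narrow margin. The log2 fold changes were 0.77 (SE 0.39, adjusted p = 0.169) in labelled knockout islets and 0.49 (SE 0.34, adjusted p = 0.311) in control islets, and in labelled knockout islets Irf7 was called on leaving out library 3 (1.04, adjusted p = 0.0423) of labelled knockout azoramide. Irf9, which joins the STATs on DNA, had 0.17 in labelled knockout islets (adjusted p = 0.669) and 0.31 in control islets (adjusted p = 0.355). In control islets it was called on leaving out library 2 (0.31, adjusted p = 0.0414) of labelled knockout azoramide. Stat2 had -0.26 in labelled knockout islets (adjusted p = 0.0963) and -0.26 in control islets (adjusted p = 0.0696). It was called lower in labelled knockout islets without TMM scaling (-0.41, adjusted p = 0.0138) or on leaving out library 2 (-0.40, adjusted p = 0.00521) of labelled knockout azoramide, and in control islets without TMM scaling (-0.42), in a fit of the 2 groups alone (-0.25) or on leaving out library 2 (-0.26) of labelled knockout azoramide and library 1 (-0.34) of control DMSO in turn. This put the adjusted p at 0.00607 to 0.0283. Irf1, which is induced above all by interferon gamma, had -0.17 in labelled knockout islets (adjusted p = 0.337) and 0.0049 in control islets (adjusted p = 0.980). Irf9 and Irf7 overlap Rnf31 and Phrf1 in the annotation, and whether counting used strand is not given in the sources used here. Of the related factors that are no members, Irf3, which acts directly below the sensors, stood at -0.032 in labelled knockout islets (adjusted p = 0.829) and 0.18 in control islets (adjusted p = 0.131), and Irf5, a factor of myeloid cells, at 0.17 in labelled knockout islets (adjusted p = 0.737) and -0.27 in control islets (adjusted p = 0.541); neither was called.

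Of the 11 feedback inhibitors, 1 was called higher (9.09%, against 20.0% of all genes) and 4 lower (36.4%, against 19.8%) in labelled knockout islets. In control islets 1 was called higher (9.09%, against 19.3%) and 3 lower (27.3%, against 19.8%). Ptpn2, a phosphatase that removes phosphate from JAKs and STATs, rose by 0.87 in labelled knockout islets (adjusted p = 2.45e-04) and 0.55 in control islets (adjusted p = 0.00223). In control islets the call was lost under the length and GC offset (0.14, adjusted p = 0.342). Irf2, which represses the same promoter element, fell (-0.51 in labelled knockout islets, adjusted p = 0.00271, and -0.35 in control islets, adjusted p = 0.0174). The call in labelled knockout islets was lost on leaving out library 1 (-0.41, adjusted p = 0.0572) of labelled knockout DMSO. In control islets the call was lost under the length and GC offset (-0.27) or on leaving out libraries 2 (-0.31) and 3 (-0.31) of control azoramide and library 3 (-0.31) of control DMSO in turn. Adjusted p-values were then 0.0586 to 0.0790. Its co-repressor Irf2bp2 fell (-0.57 in labelled knockout islets, adjusted p = 1.31e-04, and -0.33 in control islets, adjusted p = 0.00478). The control call was lost under the length and GC offset (-0.11, adjusted p = 0.358). Pias3, an inhibitor of STATs, was called lower (-0.39 in labelled knockout islets, adjusted p = 0.00657, and -0.36 in control islets, adjusted p = 0.00592). For Pias3 the labelled knockout call was lost under the length and GC offset (-0.21, adjusted p = 0.139) or on leaving out library 2 (-0.38, adjusted p = 0.0507) of labelled knockout DMSO. The call in control islets was lost under the length and GC offset (-0.23, adjusted p = 0.0883). Irf2bp1, a further co-repressor, was called lower in labelled knockout islets (-0.40, adjusted p = 0.00585), a call lost under the length and GC offset (-0.043, adjusted p = 0.785) or on leaving out library 2 (-0.29, adjusted p = 0.123) of labelled knockout DMSO.

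The 3 RNA sensors detect viral RNA in the cytosol. Ifih1, which encodes MDA5, was at 52.9, 70.3 and 49.2 CPM in labelled knockout islets with azoramide and 50.4 and 42.6 CPM with DMSO, and these overlap. In its control libraries it was at 57.7, 60.2 and 53.5 CPM with azoramide and 40.9, 38.6 and 47.0 CPM with DMSO, without overlap. It rose in control islets (0.44, SE 0.13, adjusted p = 0.0149) and was not called in labelled knockout islets (0.31, SE 0.14, adjusted p = 0.105). The control call was lost without TMM scaling (0.27) or on leaving out library 2 (0.40) of control azoramide and libraries 1 (0.42) and 2 (0.38) of control DMSO in turn. There the adjusted p was 0.0531 to 0.140. Labelled knockout islets gained one on leaving out control DMSO library 2 together with labelled knockout azoramide library 3 (0.41, adjusted p = 0.0286) or on leaving out library 3 (0.41, adjusted p = 0.0265) of labelled knockout azoramide. Ddx58, which encodes RIG-I, was at 49.5, 67.1 and 49.8 CPM in labelled knockout islets with azoramide and 45.6 and 42.8 CPM with DMSO. The Ddx58 values of control islets were 65.1, 57.4 and 63.0 CPM with azoramide and 47.7, 53.0 and 55.3 CPM with DMSO. The groups did not overlap in either genotype. It was called in labelled knockout islets (0.33, SE 0.12, adjusted p = 0.0381) and not in control islets (0.25, SE 0.10, adjusted p = 0.0719). The call was lost without TMM scaling (0.17), in a fit of the 2 groups alone (0.33) or on leaving out library 2 (0.17) of labelled knockout azoramide, libraries 1 (0.37) and 2 (0.28) of labelled knockout DMSO and library 3 (0.33) of control azoramide in turn. The resulting adjusted p was 0.0530 to 0.267. Control islets gained one in a fit of the 2 groups alone (0.26, adjusted p = 0.0213), under the length and GC offset (0.32, adjusted p = 0.0409) or on leaving out library 2 (0.25, adjusted p = 0.0130) of labelled knockout azoramide. Dhx58, which encodes LGP2, did not pass (0.21 in labelled knockout islets, adjusted p = 0.539, and 0.27 in control islets, adjusted p = 0.361), but was called in labelled knockout islets on leaving out control DMSO library 2 together with labelled knockout azoramide library 3 (0.44, adjusted p = 0.0495).

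Of 17 adaptors, kinases and other sensors that were tested, 2 were called higher and 2 lower in each genotype. Each is 11.8% of the list. Of all genes 20.0% were called higher and 19.8% lower in labelled knockout islets, and 19.3% higher and 19.8% lower in control islets. Eif2ak2, the RNA-dependent kinase PKR, rose by 0.38 in labelled knockout islets (adjusted p = 0.00585) and 0.34 in control islets (adjusted p = 0.00637). The labelled knockout call was lost under the length and GC offset (0.24, adjusted p = 0.0732), without TMM scaling (0.23, adjusted p = 0.0935) or on leaving out library 1 (0.35, adjusted p = 0.0620) of labelled knockout DMSO. The control call was lost without TMM scaling (0.17, adjusted p = 0.168). Traf3, an adaptor in the induction of interferon, fell (-0.72 in labelled knockout islets, adjusted p = 5.25e-06, and -0.55 in control islets, adjusted p = 3.09e-05). Adar, an RNA editing enzyme that masks self RNA, was called lower (-0.26 in labelled knockout islets, adjusted p = 0.00621, and -0.30 in control islets, adjusted p = 0.00104). The call in labelled knockout islets was lost under the length and GC offset (0.079, adjusted p = 0.445) or on leaving out library 1 (-0.25, adjusted p = 0.0574) of labelled knockout DMSO. In control islets the call was lost under the length and GC offset (0.0058, adjusted p = 0.962). Tlr3, an endosomal RNA receptor, rose in control islets (0.46, adjusted p = 9.07e-04) and did not pass in labelled knockout islets (0.095, adjusted p = 0.513). Tlr7, its relative for single-stranded RNA, was called in labelled knockout islets (2.52, adjusted p = 0.0225) at 0.875 ± 0.527 CPM with azoramide and 0.145 ± 0.133 CPM with DMSO, and the call was lost under the length and GC offset (2.20, adjusted p = 0.0646) or on leaving out library 1 (1.84, adjusted p = 0.196) of labelled knockout DMSO.

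The 3 genes of the ISG15 system, a ubiquitin-like modifier, did not move alike. Isg15 itself was the member of largest log2 fold change in labelled knockout islets, at 4.08, 5.62 and 2.56 CPM with azoramide, against 1.59 and 1.53 CPM with DMSO. Its control islets held 5.40, 3.29 and 3.61 CPM with azoramide, against 2.62, 2.97 and 2.55 CPM with DMSO. The groups did not overlap in either genotype, but control azoramide library 1 was well above the other 2 of its group. The change was 1.38 (SE 0.33, adjusted p = 0.00304) in labelled knockout islets, lost under the length and GC offset (0.78, adjusted p = 0.0855), and 0.59 (SE 0.28, adjusted p = 0.106) in control islets. Usp18, the protease that removes ISG15 and also damps the type I receptor, was at 22.7, 32.7 and 18.5 CPM in labelled knockout islets with azoramide and 16.5 and 15.1 CPM with DMSO. It was at 30.6, 30.7 and 31.6 CPM in control islets with azoramide and 15.9, 17.98 and 19.0 CPM with DMSO. All 6 azoramide libraries but 1 lay above all 5 DMSO libraries, the exception being labelled knockout azoramide library 3, which lay below control DMSO library 3. Usp18 rose by 0.64 in labelled knockout islets (SE 0.19, adjusted p = 0.0147) and 0.81 in control islets (SE 0.16, adjusted p = 0.00160). The labelled knockout call was lost without TMM scaling (0.49), in a fit of the 2 groups alone (0.64) or on leaving out libraries 1 (0.71) and 2 (0.58) of labelled knockout DMSO in turn. The adjusted p was then 0.0540 to 0.117. Trim25, a ubiquitin ligase that activates RIG-I and also attaches ISG15, ran the other way, at 63.3, 67.3 and 59.6 CPM in labelled knockout islets with azoramide, against 88.2 and 82.5 CPM with DMSO. For control islets the values were 66.1, 70.1 and 70.9 CPM with azoramide and 85.7, 86.8 and 91.7 CPM with DMSO. Every azoramide library was below every DMSO library, and Trim25 fell to 0.743 of the DMSO level in labelled knockout islets and 0.784 of it in control islets, with log2 fold changes of -0.43 in labelled knockout islets (SE 0.069, adjusted p = 1.02e-04) and -0.35 in control islets (SE 0.062, adjusted p = 2.46e-04).

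**Figure D2:**
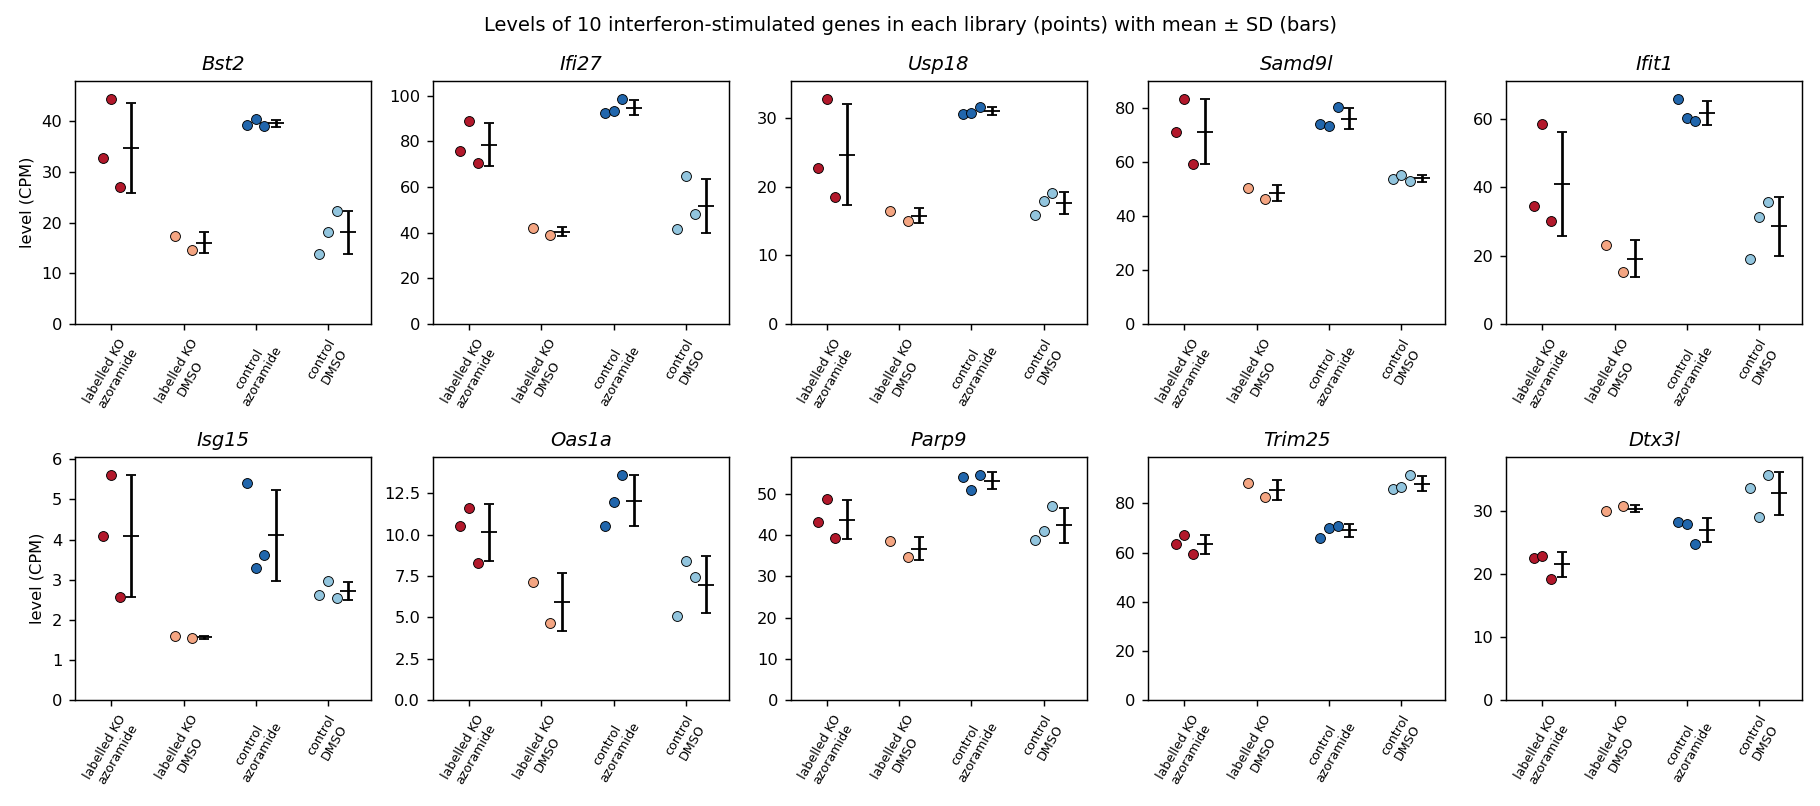
Level in CPM (vertical axes, from 0) of 10 of the genes in each of the 11 libraries (points), with mean ± SD of each group (bars); groups run from labelled knockout with azoramide to control with DMSO. Bst2, Ifi27 and Samd9l lie higher and Trim25 and Dtx3l lower with azoramide in both genotypes, and the labelled knockout azoramide libraries spread more than the control azoramide libraries for Ifit1 and Usp18.

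Most of the 10 other antiviral effectors rose: 6 were called higher in each genotype and 0 lower, against 20.0% called higher of all genes in labelled knockout islets and 19.3% in control islets. Bst2, tetherin, which holds budding virus at the cell surface, was at 32.6, 44.3 and 26.9 CPM in labelled knockout islets with azoramide, against 17.4 and 14.5 CPM with DMSO. Control islets held 39.2, 40.3 and 39.1 CPM with azoramide and 13.7, 18.2 and 22.2 CPM with DMSO. All 6 azoramide libraries lay above all 5 DMSO libraries, and Bst2 rose 2.17-fold in labelled knockout islets and 2.19-fold in control islets, with log2 fold changes of 1.12 in labelled knockout islets (SE 0.23, adjusted p = 0.00316) and 1.13 in control islets (SE 0.20, adjusted p = 0.00133). Ifi27, a small hydrophobic protein of mitochondrial and nuclear membranes, was at 76.0, 89.1 and 70.6 CPM in labelled knockout islets with azoramide, against 41.9 and 39.1 CPM with DMSO. The control values were 92.4, 93.4 and 98.5 CPM with azoramide and 41.6, 64.6 and 48.4 CPM with DMSO, and again every azoramide library lay above every DMSO library. Ifi27 rose by 0.96 in labelled knockout islets (SE 0.17, adjusted p = 0.00112) and 0.88 in control islets (SE 0.14, adjusted p = 8.19e-04). Samd9l, a restriction factor of the cytosol, was at 71.3, 83.4 and 59.4 CPM in labelled knockout islets with azoramide and 50.6 and 46.4 CPM with DMSO. Its control islets were at 74.3, 73.5 and 80.6 CPM with azoramide and 53.7, 55.3 and 53.0 CPM with DMSO. The treatments did not overlap across both genotypes, and Samd9l rose by 0.56 in labelled knockout islets (SE 0.11, adjusted p = 6.18e-04) and 0.50 in control islets (SE 0.094, adjusted p = 5.81e-04).

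Rtp4, a Golgi chaperone of receptors, was at 16.5, 27.1 and 15.4 CPM in labelled knockout islets with azoramide, against 8.78 and 9.44 CPM with DMSO. For control islets these were 26.3, 21.4 and 25.1 CPM with azoramide and 11.1, 16.8 and 17.4 CPM with DMSO. It rose by 1.11 in labelled knockout islets (SE 0.27, adjusted p = 0.00812) and 0.68 in control islets (SE 0.23, adjusted p = 0.0376). For Rtp4 the labelled knockout call was lost on leaving out libraries 1 (1.06, adjusted p = 0.0653) and 2 (1.16, adjusted p = 0.0536) of labelled knockout DMSO in turn. The call in control islets was lost without TMM scaling (0.51), without the low-count filter (0.68), under the length and GC offset (0.39), on leaving out control DMSO library 2 together with labelled knockout azoramide library 3 (0.76) or on leaving out libraries 1 (0.68) and 2 (0.68) of labelled knockout DMSO, libraries 1 (0.63) and 3 (0.65) of control azoramide and libraries 1 (0.50), 2 (0.76) and 3 (0.79) of control DMSO in turn. This put the adjusted p at 0.0511 to 0.238. Ifi44, a GTPase-like protein and the lowest of the 31 per kilobase, was at 4.24, 7.17 and 3.19 CPM in labelled knockout islets with azoramide, against 2.77 and 2.35 CPM with DMSO. In control libraries it was at 5.93, 6.22 and 6.28 CPM with azoramide and 2.505, 4.51 and 3.94 CPM with DMSO. The groups did not overlap within a genotype, and Ifi44 rose by 0.93 in labelled knockout islets (SE 0.31, adjusted p = 0.0262) and 0.75 in control islets (SE 0.27, adjusted p = 0.0346). The labelled knockout call was lost without TMM scaling (0.77), under the length and GC offset (0.71) or on leaving out library 2 (0.54) of labelled knockout azoramide and libraries 1 (1.05) and 2 (0.81) of labelled knockout DMSO in turn. Adjusted p-values were then 0.0595 to 0.176. The control call was lost without TMM scaling (0.58), under the length and GC offset (0.60) or on leaving out libraries 1 (0.78), 2 (0.74) and 3 (0.73) of control azoramide and libraries 1 (0.54) and 3 (0.80) of control DMSO in turn. There the adjusted p was 0.0535 to 0.153. Rtp4 overlaps Masp1 in the annotation.

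Xaf1, a pro-apoptotic partner of XIAP, was at 10.998, 20.1 and 10.4 CPM in labelled knockout islets with azoramide, against 8.06 and 6.76 CPM with DMSO. Control islets were at 14.7, 15.9 and 15.1 CPM with azoramide, against 7.40, 11.7 and 12.6 CPM with DMSO. It was called in labelled knockout islets (0.90, SE 0.30, adjusted p = 0.0368) and not in control islets (0.53, SE 0.26, adjusted p = 0.139), where it was called in DESeq2 (0.54, adjusted p = 0.0425), in a fit of the 2 groups alone (0.54, adjusted p = 0.0287) or on leaving out library 2 (0.53, adjusted p = 0.0161) of labelled knockout azoramide. The labelled knockout call was lost without TMM scaling (0.75), without the low-count filter (0.90), in a fit of the 2 groups alone (0.90), under the length and GC offset (0.87) or on leaving out library 2 (0.53) of labelled knockout azoramide, libraries 1 (1.03) and 2 (0.78) of labelled knockout DMSO, libraries 2 (0.90) and 3 (0.90) of control azoramide and library 2 (0.90) of control DMSO in turn. The resulting adjusted p was 0.0515 to 0.209. Rsad2, viperin, which makes a chain-terminating nucleotide, was at 50.1, 63.7 and 48.7 CPM in labelled knockout islets with azoramide and 47.8 and 35.9 CPM with DMSO. Its control libraries held 66.9, 63.0 and 66.2 CPM with azoramide and 38.9, 53.9 and 51.9 CPM with DMSO. It was called in control islets (0.44, SE 0.15, adjusted p = 0.0387) and not in labelled knockout islets (0.37, SE 0.17, adjusted p = 0.105), where it was called in DESeq2 (0.38, adjusted p = 0.0283) or on leaving out library 1 (0.60, adjusted p = 0.0337) of labelled knockout DMSO and library 1 (0.37, adjusted p = 0.0339) of control DMSO in turn. The control call was lost without TMM scaling (0.27), without the low-count filter (0.44), under the length and GC offset (0.30), on leaving out control DMSO library 2 together with labelled knockout azoramide library 3 (0.53) or on leaving out libraries 1 (0.43), 2 (0.46) and 3 (0.43) of control azoramide and libraries 1 (0.30) and 3 (0.49) of control DMSO in turn. The adjusted p was then 0.0627 to 0.174. Cmpk2, which lies beside Rsad2 on chromosome 12 and supplies its substrate, did not pass (0.13 in labelled knockout islets, adjusted p = 0.484, and -0.16 in control islets, adjusted p = 0.306), but was called lower in control islets without TMM scaling (-0.33, adjusted p = 0.0441). Ifi35, which binds NMI, had 0.19 in labelled knockout islets (adjusted p = 0.377) and 0.28 in control islets (adjusted p = 0.127). In control islets it was called on leaving out library 3 (0.41, adjusted p = 0.0338) of control DMSO. Lgals3bp, a secreted galectin-binding glycoprotein and by far the highest of the 31 per kilobase, was at 786, 801 and 653 CPM in labelled knockout islets with azoramide, against 822 and 772 CPM with DMSO. In control islets it was at 741, 830.5 and 751 CPM with azoramide, against 797, 923 and 835 CPM with DMSO. All 4 groups overlapped, and neither change passed (-0.093 in labelled knockout islets, adjusted p = 0.430, and -0.14 in control islets, adjusted p = 0.183), although in control islets it was called lower without TMM scaling (-0.30, adjusted p = 0.0102).

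The IFIT proteins bind viral RNA ends, and their genes lie together on chromosome 19. Ifit1 was at 34.4, 58.3 and 30.2 CPM in labelled knockout islets with azoramide, against 23.0 and 15.3 CPM with DMSO. Control islets held 65.7, 60.2 and 59.2 CPM with azoramide, against 19.0, 31.2 and 35.6 CPM with DMSO. The groups did not overlap in either genotype, and Ifit1 rose 2.15-fold in labelled knockout islets and 2.15-fold in control islets, with log2 fold changes of 1.10 in labelled knockout islets (SE 0.37, adjusted p = 0.0499) and 1.11 in control islets (SE 0.32, adjusted p = 0.0272). The labelled knockout call lay at the threshold and was lost in 15 of 20 alternatives, among them without TMM scaling (0.95), without the low-count filter (1.10), in a fit of the 2 groups alone (1.10), under the length and GC offset (0.67), on leaving out control DMSO library 2 together with labelled knockout azoramide library 3 (1.28) or on leaving out libraries 1 (1.21) and 2 (0.76) of labelled knockout azoramide, libraries 1 (1.42) and 2 (0.83) of labelled knockout DMSO, libraries 1 (1.10), 2 (1.10) and 3 (1.10) of control azoramide and libraries 2 (1.10) and 3 (1.10) of control DMSO in turn. This put the adjusted p at 0.0541 to 0.260. In control islets the call was lost under the length and GC offset (0.73), on leaving out control DMSO library 2 together with labelled knockout azoramide library 3 (1.18) or on leaving out libraries 1 (1.07), 2 (1.12) and 3 (1.14) of control azoramide and libraries 1 (0.89) and 2 (1.18) of control DMSO in turn. Adjusted p-values were then 0.0548 to 0.137. Ifit3 was at 23.0, 53.9 and 19.0 CPM in labelled knockout islets with azoramide, against 22.0 and 11.6 CPM with DMSO. The Ifit3 values of control islets were 50.6, 48.8 and 43.3 CPM with azoramide, against 20.1, 24.0 and 25.4 CPM with DMSO. Neither change passed (0.93 in labelled knockout islets, adjusted p = 0.172, and 1.04 in control islets, adjusted p = 0.0875), but in control islets it was called in DESeq2 (1.04, adjusted p = 0.0295), in a fit of the 2 groups alone (1.04, adjusted p = 1.60e-05) or on leaving out library 2 (1.04, adjusted p = 0.00375) of labelled knockout azoramide. Without labelled knockout azoramide library 2 the Ifit3 change in labelled knockout islets was 0.33, and without DMSO library 1 of that label 1.46. Ifit2 did not pass (0.69 in labelled knockout islets, adjusted p = 0.255, and 0.64 in control islets, adjusted p = 0.235), but was called in labelled knockout islets on leaving out library 3 (1.01, adjusted p = 0.0233) of labelled knockout azoramide, and in control islets in a fit of the 2 groups alone (0.65, adjusted p = 0.0257). Reads of Ifit1 and Ifit3 may be shared with related genes of the family. These were Ifit1bl1 (0.67 in labelled knockout islets, adjusted p = 0.0262, and 0.34 in control islets, adjusted p = 0.206), Ifit1bl2 (0.80 in labelled knockout islets, adjusted p = 0.182, and 0.0041 in control islets, adjusted p = 0.995) and Ifit3b (0.51 in labelled knockout islets, adjusted p = 0.300, and 0.83 in control islets, adjusted p = 0.0618). The Ifit1bl1 call was lost under the length and GC offset (0.17), without TMM scaling (0.51) or on leaving out library 1 (0.48) of labelled knockout azoramide and libraries 1 (0.70) and 2 (0.64) of labelled knockout DMSO in turn. There the adjusted p was 0.0831 to 0.637.

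Oas1a encodes an oligoadenylate synthetase, which activates RNase L on meeting double-stranded RNA. It was at 10.5, 11.6 and 8.25 CPM in labelled knockout islets with azoramide, against 7.13 and 4.65 CPM with DMSO. The Oas1a values of control islets were 10.5, 11.99 and 13.6 CPM with azoramide, against 5.07, 8.42 and 7.43 CPM with DMSO. The groups did not overlap within a genotype. Oas1a rose 1.72-fold in labelled knockout islets and 1.72-fold in control islets, with log2 fold changes of 0.79 in labelled knockout islets (SE 0.23, adjusted p = 0.0120) and 0.78 in control islets (SE 0.20, adjusted p = 0.00501). The call in labelled knockout islets was lost under the length and GC offset (0.55, adjusted p = 0.0770) or on leaving out library 2 (0.51, adjusted p = 0.188) of labelled knockout DMSO. The call in control islets was lost under the length and GC offset (0.53, adjusted p = 0.0529). Oasl2, its ubiquitin-like relative, was at 25.7, 53.1 and 21.6 CPM in labelled knockout islets with azoramide, against 32.8 and 23.8 CPM with DMSO. The Oasl2 values of control islets were 46.9, 40.2 and 40.1 CPM with azoramide, against 26.2, 33.5 and 39.8 CPM with DMSO. Labelled knockout azoramide library 2 alone stood above both DMSO libraries of its label, and neither change passed (0.24 in labelled knockout islets, adjusted p = 0.668, and 0.35 in control islets, adjusted p = 0.470). Of 5 further relatives, Oasl1 was called higher in labelled knockout islets (0.89, adjusted p = 0.0385), which was lost without the low-count filter (0.90), in a fit of the 2 groups alone (0.90), without TMM scaling (0.74) or on leaving out libraries 1 (0.95) and 2 (0.60) of labelled knockout azoramide, library 2 (0.53) of labelled knockout DMSO, library 3 (0.89) of control azoramide and libraries 1 (0.89), 2 (0.90) and 3 (0.89) of control DMSO in turn. The resulting adjusted p was 0.0519 to 0.265. Oas2 was called lower there (-0.97, adjusted p = 0.0144), which was lost on leaving out library 1 (-0.78, adjusted p = 0.0631) of labelled knockout azoramide and library 1 (-0.76, adjusted p = 0.148) of labelled knockout DMSO in turn. Oas1c (-0.12 in labelled knockout islets, adjusted p = 0.794, and 0.24 in control islets, adjusted p = 0.550), Oas1g (0.47 in labelled knockout islets, adjusted p = 0.228, and 0.60 in control islets, adjusted p = 0.0806) and Oas3 (-0.52 in labelled knockout islets, adjusted p = 0.536, and -0.42 in control islets, adjusted p = 0.590) passed in neither genotype, and Oas1a and Oas1g are near-identical copies.

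The guanylate-binding proteins coat vacuoles of pathogens, and their genes lie together on chromosome 3. Gbp2 was at 8.85, 25.1 and 8.54 CPM in labelled knockout islets with azoramide, against 7.49 and 5.42 CPM with DMSO. The Gbp2 values of control islets were 13.7, 20.1 and 14.3 CPM with azoramide, against 7.01, 7.98 and 10.6 CPM with DMSO. Labelled knockout azoramide library 2 was the highest of all 11, at 2.94 times the lowest of its group, the largest spread within that group among the 31. Neither change passed (1.14 in labelled knockout islets, adjusted p = 0.127, and 0.91 in control islets, adjusted p = 0.155), but in control islets it was called in a fit of the 2 groups alone (0.92, adjusted p = 0.00284) or on leaving out library 2 (0.91, adjusted p = 0.00111) of labelled knockout azoramide. Without that library the Gbp2 change in labelled knockout islets was 0.43. Gbp3 had 0.62 in labelled knockout islets (adjusted p = 0.272) and 0.53 in control islets (adjusted p = 0.281). In control islets it was called in a fit of the 2 groups alone (0.54, adjusted p = 0.0326) or on leaving out library 2 (0.53, adjusted p = 0.0346) of labelled knockout azoramide. Gbp7 was at 30.4, 36.0 and 25.4 CPM in labelled knockout islets with azoramide, against 33.4 and 27.4 CPM with DMSO. The Gbp7 values of control islets were 31.95, 28.3 and 31.5 CPM with azoramide, against 28.2, 30.3 and 33.5 CPM with DMSO. The 4 groups overlapped fully, and the 95% intervals of its change ran from -0.26 to 0.29 in labelled knockout islets and from -0.25 to 0.24 in control islets. Of 6 further Gbp genes, Gbp6 was called in control islets (0.71, adjusted p = 0.0436) and not in labelled knockout islets (0.64, adjusted p = 0.0950), the call being lost under the length and GC offset (0.57), without the low-count filter (0.71), without TMM scaling (0.54), on leaving out control DMSO library 2 together with labelled knockout azoramide library 3 (0.66) or on leaving out library 1 (0.70) of labelled knockout azoramide, libraries 1 (0.70), 2 (0.76) and 3 (0.67) of control azoramide and libraries 1 (0.58) and 2 (0.66) of control DMSO in turn. The adjusted p was then 0.0614 to 0.127. Gbp4, Gbp5, Gbp8, Gbp9 and Gbp10 passed in neither genotype, with log2 fold changes of 0.16 to 0.89 in labelled knockout islets and 0.20 to 0.71 in control islets. Reads that match several Gbp copies may be split among them.

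The ADP-ribosyltransferase Parp9 and the ubiquitin ligase Dtx3l form a complex, and their genes overlap head to head on chromosome 16. In control islets Parp9 rose with azoramide while Dtx3l fell. Parp9 was at 43.2, 48.8 and 39.5 CPM in labelled knockout islets with azoramide, against 38.7 and 34.8 CPM with DMSO. The Parp9 values of control islets were 54.2, 51.1 and 54.7 CPM with azoramide, against 38.9, 41.2 and 47.2 CPM with DMSO. Neither genotype's groups overlapped. It rose in control islets (0.33, SE 0.089, adjusted p = 0.00671), a call lost without TMM scaling (0.16, adjusted p = 0.182). It missed the threshold in labelled knockout islets (0.26, SE 0.10, adjusted p = 0.0521), and was called with DESeq2's size factors (0.26), in DESeq2 (0.26), without the low-count filter (0.26), on leaving out control DMSO library 2 together with labelled knockout azoramide library 3 (0.33) or on leaving out library 3 (0.33) of labelled knockout azoramide and libraries 2 (0.26) and 3 (0.26) of control DMSO in turn. This put the adjusted p at 0.00572 to 0.0491. Dtx3l was at 22.5, 22.8 and 19.2 CPM in labelled knockout islets with azoramide, against 29.97 and 30.7 CPM with DMSO. Control islets gave 28.2, 27.8 and 24.8 CPM with azoramide, against 33.6, 29.0 and 35.7 CPM with DMSO. Within each genotype every azoramide library was below every DMSO library, and Dtx3l fell, with log2 fold changes of -0.50 in labelled knockout islets (SE 0.11, adjusted p = 0.00136) and -0.28 in control islets (SE 0.10, adjusted p = 0.0271). The control call was lost on leaving out library 3 (-0.23, adjusted p = 0.126) of control azoramide and libraries 1 (-0.26, adjusted p = 0.0800) and 3 (-0.22, adjusted p = 0.117) of control DMSO in turn. Parp14, which ADP-ribosylates STATs, did not pass (-0.25 in labelled knockout islets, adjusted p = 0.303, and -0.27 in control islets, adjusted p = 0.212).

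Other genes that interferons induce, a list of 71 tested genes outside the 31, had medians of 0.35 in labelled knockout islets and 0.34 in control islets. In labelled knockout islets 19 of the 71 were called higher (26.8%, against 20.0% of all genes) and 6 lower (8.45%, against 19.8%). In control islets 16 were called higher (22.5%, against 19.3%) and 3 lower (4.23%, against 19.8%). The shares called higher lay near those of all genes. Psme1 and Psme2, subunits of the proteasome activator PA28, rose. Psme2 did so by 0.79 in labelled knockout islets (adjusted p = 5.40e-06) and 0.80 in control islets (adjusted p = 1.03e-06), and Psme1 by 0.74 in labelled knockout islets (adjusted p = 1.98e-05) and 0.65 in control islets (adjusted p = 1.75e-05). Isg20, an RNA exonuclease, rose by 0.68 in labelled knockout islets (adjusted p = 6.65e-05) and 0.66 in control islets (adjusted p = 2.74e-05). Ifi30, a lysosomal thiol reductase, was called higher (0.47 in labelled knockout islets, adjusted p = 7.04e-05, and 0.63 in control islets, adjusted p = 1.01e-06), both lost under the offset (0.012 in labelled knockout islets, adjusted p = 0.927, and 0.18 in control islets, adjusted p = 0.0713). Znfx1, an RNA helicase, was called lower (-0.61 in labelled knockout islets, adjusted p = 2.41e-05, and -0.52 in control islets, adjusted p = 4.19e-05), likewise lost with the offset (-0.19 in labelled knockout islets, adjusted p = 0.0714, and -0.15 in control islets, adjusted p = 0.119). These lists and the 31 genes were chosen with earlier results of the same libraries known, so the counts describe them and test nothing about the family as such.

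The libraries of a group differed from each other across most of the family at once. Labelled knockout azoramide library 2 was the highest of its group in 29 of the 31 genes and library 3 the lowest in 28, while over all genes library 2 was the highest in 31.0% and library 3 the lowest in 37.1%. Library 2 was also the highest of all 11 libraries in 18 of the 31 (10.5% of all genes). Labelled knockout DMSO library 2 was the lower of its pair in 28 (48.5% of all genes), and the lowest of all 11 in 17 (10.9%). Among controls with DMSO, library 1 was the lowest in 25 (27.1% of all genes) and library 3 the highest in 23 (35.2%). The mean log2 level of the 31, log2(CPM + 0.5), was 4.84, 5.32 and 4.61 in labelled knockout islets with azoramide, 4.65 and 4.40 with DMSO, 5.17, 5.19 and 5.15 in control islets with azoramide and 4.56, 4.82 and 4.93 with DMSO. By this measure the 3 control azoramide libraries lay above all 3 control DMSO libraries, but labelled knockout azoramide library 3 lay below labelled knockout DMSO library 1. The median of the 31 in labelled knockout islets was 0.17 once azoramide library 2 of that label was left out and 0.60 once its DMSO library 1 was. The ratio of the highest to the lowest library had a median over the 31 of 1.504 in labelled knockout islets with azoramide and 1.19 with DMSO, and of 1.12 in control islets with azoramide and 1.39 with DMSO. Over 11885 genes with at least 1.53 CPM in every library it was 1.15 in labelled knockout islets with azoramide and 1.06 with DMSO, and 1.13 in control islets with azoramide and 1.17 with DMSO.

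**Figure D3:**
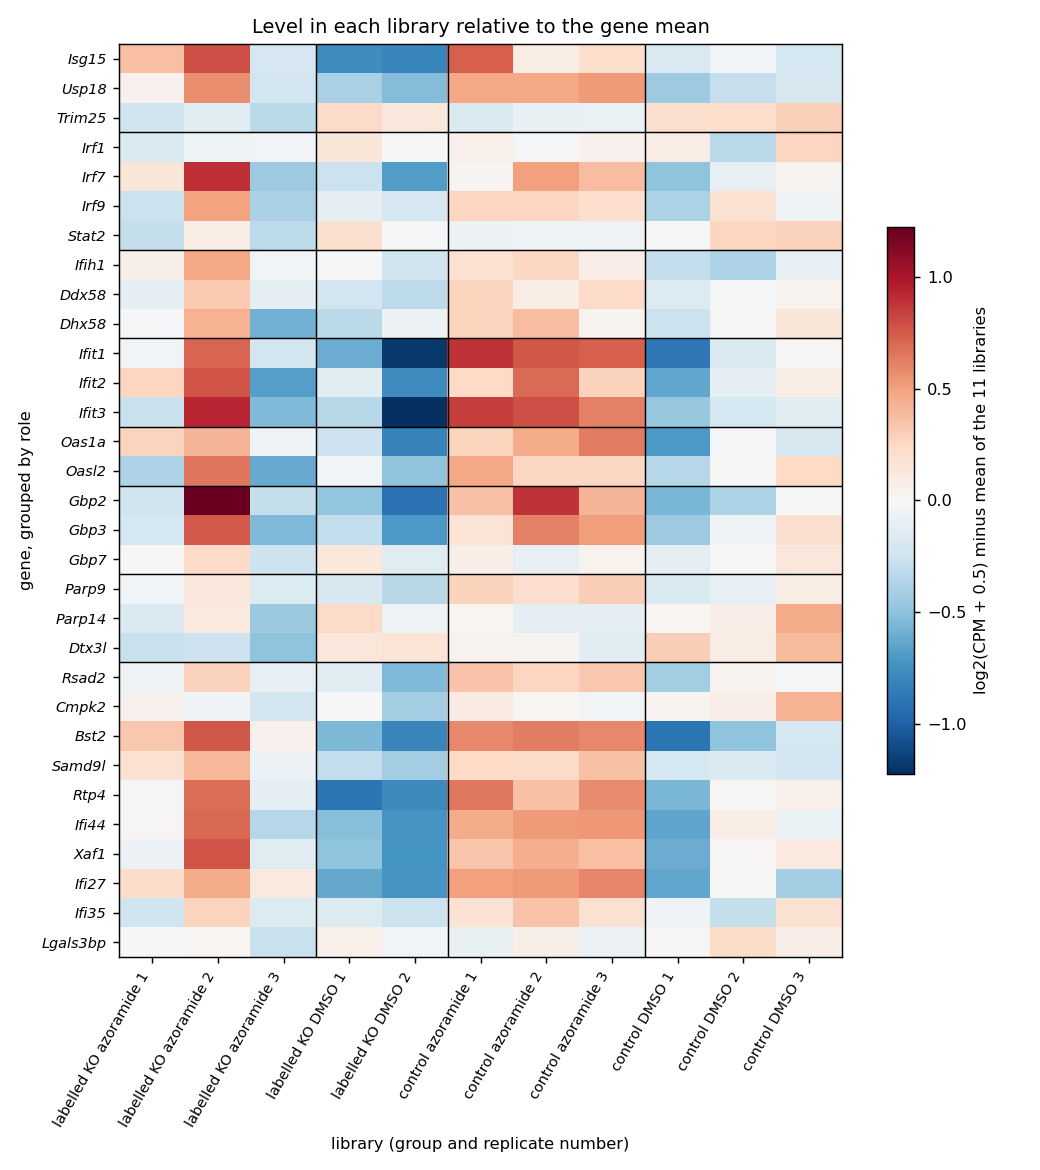
Log2(CPM + 0.5) of each of the 31 genes (one line each, in blocks by role) in each of the 11 libraries (columns), minus the mean of the gene over the libraries; red is above and blue below that mean. Labelled knockout azoramide library 2 is red for most genes, labelled knockout DMSO library 2 is blue for most, and the 3 control azoramide libraries resemble each other.

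Whole islets hold several cell types, and in such samples fewer cells of a type and less RNA per cell cannot be told apart. Macrophage markers, 14 genes, summed to 88.1 to 177 CPM in labelled knockout islets with azoramide, 78.3 to 81.7 CPM with DMSO, 84.5 to 112 CPM in control islets with azoramide and 65.2 to 89.2 CPM with DMSO. All 14 had reads. Of these, 4 were called higher with azoramide in labelled knockout islets and 2 in control islets, and 0 lower in either genotype. Over all genes 20.0% were called higher and 19.8% lower in labelled knockout islets, and 19.3% higher and 19.8% lower in control islets. The same shares are the comparison for the calls in the other lists. The highest macrophage sum was that of labelled knockout azoramide library 1. Dendritic cell markers, 11 genes without Bst2, summed to 52.2 to 72.5 CPM in labelled knockout islets with azoramide, 75.01 to 76.4 CPM with DMSO, 41.6 to 60.2 CPM in control islets with azoramide and 55.6 to 73.8 CPM with DMSO. Of these Xcr1 had no read and Siglech at most 0.115 CPM. Of the 4 tested, 0 were called in labelled knockout islets, and 2 were called lower in control islets. Lymphocyte markers summed to 1.14 to 1.61 CPM in labelled knockout islets with azoramide, 1.68 to 2.104 CPM with DMSO, 1.703 to 2.06 CPM in control islets with azoramide and 1.88 to 2.27 CPM with DMSO, with no read of Cd3g, Cd8a, Gzma or Ncr1. Endothelial markers were at 265 to 310 CPM in labelled knockout islets with azoramide, 358 to 367 CPM with DMSO, 264 to 329 CPM in control islets with azoramide and 355 to 365 CPM with DMSO. Acinar markers summed to 1029.5 to 5566 CPM in labelled knockout islets with azoramide, 522 to 2333 CPM with DMSO, 1650.1 to 4391 CPM in control islets with azoramide and 876 to 5418 CPM with DMSO. The highest acinar sums were those of labelled knockout azoramide library 2 (5566 CPM) and control DMSO library 2 (5418 CPM). Alpha cell markers summed to 23786 to 25558 CPM in labelled knockout islets with azoramide, 14596 to 16610 CPM with DMSO, 24566 to 27934 CPM in control islets with azoramide and 14519 to 16091 CPM with DMSO. Of these 7 of 8 were called higher with azoramide in labelled knockout islets (20.0% of all genes) and 5 in control islets (19.3%), and 0 lower. Ductal markers summed to 1618 to 1894 CPM in labelled knockout islets with azoramide, 1383 to 1392 CPM with DMSO, 1511 to 1885 CPM in control islets with azoramide and 1177 to 1452 CPM with DMSO. Delta cell markers summed to 1890.1 to 2683 CPM in labelled knockout islets with azoramide, 1859 to 1974 CPM with DMSO, 2016 to 2307 CPM in control islets with azoramide and 1726 to 1915 CPM with DMSO. Beta cell markers summed to 141132 to 174977 CPM in labelled knockout islets with azoramide, 130209 to 133401 CPM with DMSO, 152242 to 192980 CPM in control islets with azoramide and 139961 to 142607 CPM with DMSO. The sums of alpha, beta and ductal markers were higher in every azoramide library than in every DMSO library of the same genotype. Macrophage sums were so only in labelled knockout islets, and delta cell sums only in control islets. Endothelial sums were lower in every azoramide library of both genotypes. Dendritic cell, lymphocyte and mesenchymal sums were lower in this way only in labelled knockout islets. Of the 11 endothelial markers 4 were called lower in each genotype, and 1 higher in control islets. Of the 10 beta cell markers 3 were called higher and 4 lower in labelled knockout islets, and 4 higher and 4 lower in control islets. Their median log2 fold change was -0.46 in labelled knockout islets and -0.35 in control islets. Most of the beta cell sum was Ins2, with means of 93466 CPM with azoramide and 78283 with DMSO in labelled knockout islets. In control islets these were 113684 and 84899 CPM. Ins1 ran the other way, at 22036 and 31245 CPM in labelled knockout islets and 23882 and 32781 CPM in control islets. Among 7 ductal markers tested, 1 was called higher and 1 lower in labelled knockout islets, and 2 higher and 1 lower in control islets. In each genotype 1 of 4 delta cell markers was called higher and 0 of 11 acinar markers in either direction. Mesenchymal and stellate markers summed to 49.6 to 57.6 CPM in all libraries, of which Rgs5 alone held 25.0 to 37.2 CPM. Of 9 tested, 2 were called lower and 0 higher with azoramide in labelled knockout islets (median log2 fold change -0.25). In control islets 3 of the 9 were called lower and 1 higher (median -0.50). The part of these cells in the results was not tested.

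Levels between genes were compared per kilobase of exon. Lgals3bp stood highest, at 262 CPM per kb in labelled knockout islets with azoramide, 280 with DMSO, 272 in control islets with azoramide and 299 with DMSO. Ifi27 came second in all 4 groups, at 53.6 CPM per kb in labelled knockout islets with azoramide, 27.6 with DMSO, 64.6 in control islets with azoramide and 35.1 with DMSO. Bst2 was next, at 38.3 CPM per kb in labelled knockout islets with azoramide, 17.7 with DMSO, 43.8 in control islets with azoramide and 20.02 with DMSO. The median of the 31 was 7.86 CPM per kb in labelled knockout islets with azoramide, 5.84 with DMSO, 8.68 in control islets with azoramide and 7.10 with DMSO. At the low end Ifi44 had 0.794 CPM per kb in labelled knockout islets with azoramide, 0.418 with DMSO, 1.003 in control islets with azoramide and 0.596 with DMSO. The lowest count of any member in a library was 31 reads, for Isg15.

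Exonic length went along with the size of the change. In labelled knockout islets the 15 shorter members, of 756 to 3927 bases, had a median log2 fold change of 0.79, and the 16 longer ones, of 3976 to 9306 bases, 0.21. In control islets the medians were 0.68 for the shorter and 0.28 for the longer members. All genes of the shorter range had medians of 0.15 in labelled knockout islets and 0.14 in control islets, and all of the longer range -0.10 in labelled knockout islets and -0.11 in control islets. Under the length and GC offset the shorter members were at 0.55 in labelled knockout islets and 0.53 in control islets, and the longer ones at 0.22 in labelled knockout islets and 0.28 in control islets. With it 6 members were called higher in labelled knockout islets and 7 in control islets, against 1962 of all genes in labelled knockout islets and 1884 in control islets. Bst2, the second shortest at 903 bases, was at 0.68 in labelled knockout islets and 0.71 in control islets with the offset, and Ifi27 at 0.63 in labelled knockout islets and 0.55 in control islets; both were called in both genotypes. The part of length and GC content in the results was not tested beyond this offset.

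**Figure D4:**
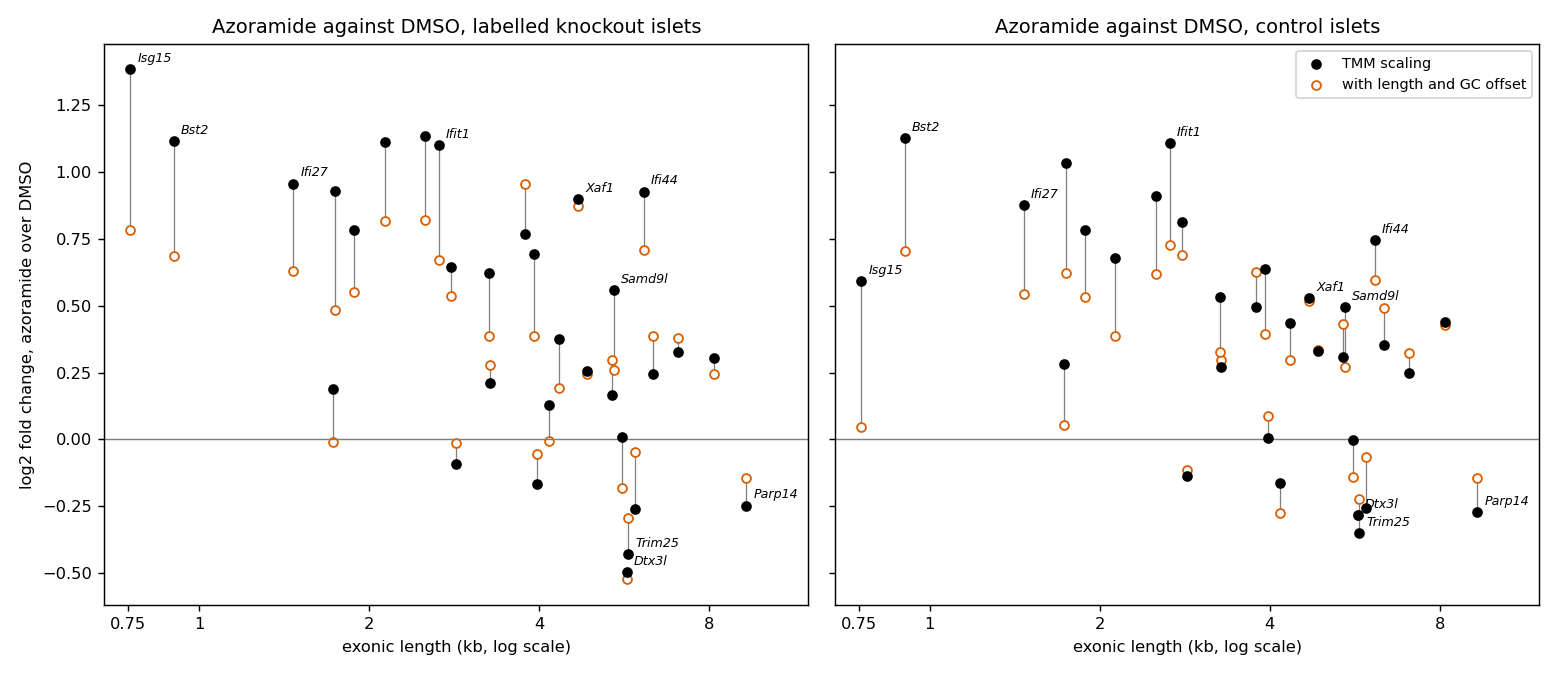
Log2 fold change of azoramide over DMSO (vertical axis) against exonic length in kb (horizontal, log scale) for the 31 genes in labelled knockout islets (left) and control islets (right). Black points are with TMM scaling and open orange points with the offset, joined for each gene; Isg15, at 756 bases, lies at 0.78 with the offset, against 1.38 without it, in labelled knockout islets, and at 0.05, against 0.59 without it, in control islets.

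Between the genotype labels no member passed the test in either treatment. With azoramide edgeR called 0 of the 31 and 0 of all genes (0% called), with 2 of the 31 and 754 genes at an unadjusted p under 0.05; DESeq2 called 2 genes and 0 of the 31. With DMSO edgeR again called 0 (0% called), with 3 of the 31 and 531 genes at an unadjusted p under 0.05, and DESeq2 called 3 genes and 0 of the 31. The fold changes of labelled knockout over control were nonetheless mostly negative: 29 of the 31 with azoramide, median -0.19, and 29 with DMSO, median -0.21, against medians over all genes of 0.00066 with azoramide and -0.0034 with DMSO. In 5 of the 31 every labelled knockout library lay below every control library with azoramide (5.58% of all genes), and in 6 with DMSO (9.57%), where 2 libraries stood against 3. The median moved with single libraries. With azoramide it was -0.40 on leaving out labelled knockout azoramide library 2 and -0.084 on leaving out library 3. With DMSO it was -0.10 on leaving out labelled knockout DMSO library 2, -0.32 for library 1 and -0.34 for control DMSO library 1.

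The members of smallest unadjusted p with azoramide were Dtx3l and Parp9. Dtx3l was at 22.5, 22.8 and 19.2 CPM in labelled knockout islets, against 28.2, 27.8 and 24.8 CPM in control islets, a log2 difference of -0.32, SE 0.10, adjusted p = 0.958, with a 95% interval of -0.53 to -0.12. Parp9 was at 43.2, 48.8 and 39.5 CPM in labelled knockout islets, against 54.2, 51.1 and 54.7 CPM in control islets, a difference of -0.28, SE 0.089, adjusted p = 0.958, with an interval of -0.47 to -0.095. Every labelled knockout library lay below every control library for both genes. Ifit1 also did not overlap but spread widely (-0.59, SE 0.31, adjusted p = 0.968, interval -1.32 to 0.14). With DMSO, Cmpk2 was at 28.1 and 21.0 CPM in labelled knockout islets, against 28.9, 29.9 and 38.0 CPM in control islets, a difference of -0.40, SE 0.14, adjusted p = 0.999, with an interval of -0.68 to -0.11. Isg15 was at 1.59 and 1.53 CPM in labelled knockout islets, against 2.62, 2.97 and 2.55 CPM in control islets, a difference of -0.80, SE 0.34, adjusted p = 0.999. Rtp4 was at 8.78 and 9.44 CPM in labelled knockout islets, against 11.1, 16.8 and 17.4 CPM in control islets, a difference of -0.73, SE 0.27, adjusted p = 0.999. In all 3 both labelled knockout libraries were below the 3 control libraries. The positive differences were those of Ifih1 and Gbp7 with azoramide and of Ifih1 and Irf1 with DMSO, none above 0.14.

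**Figure D5:**
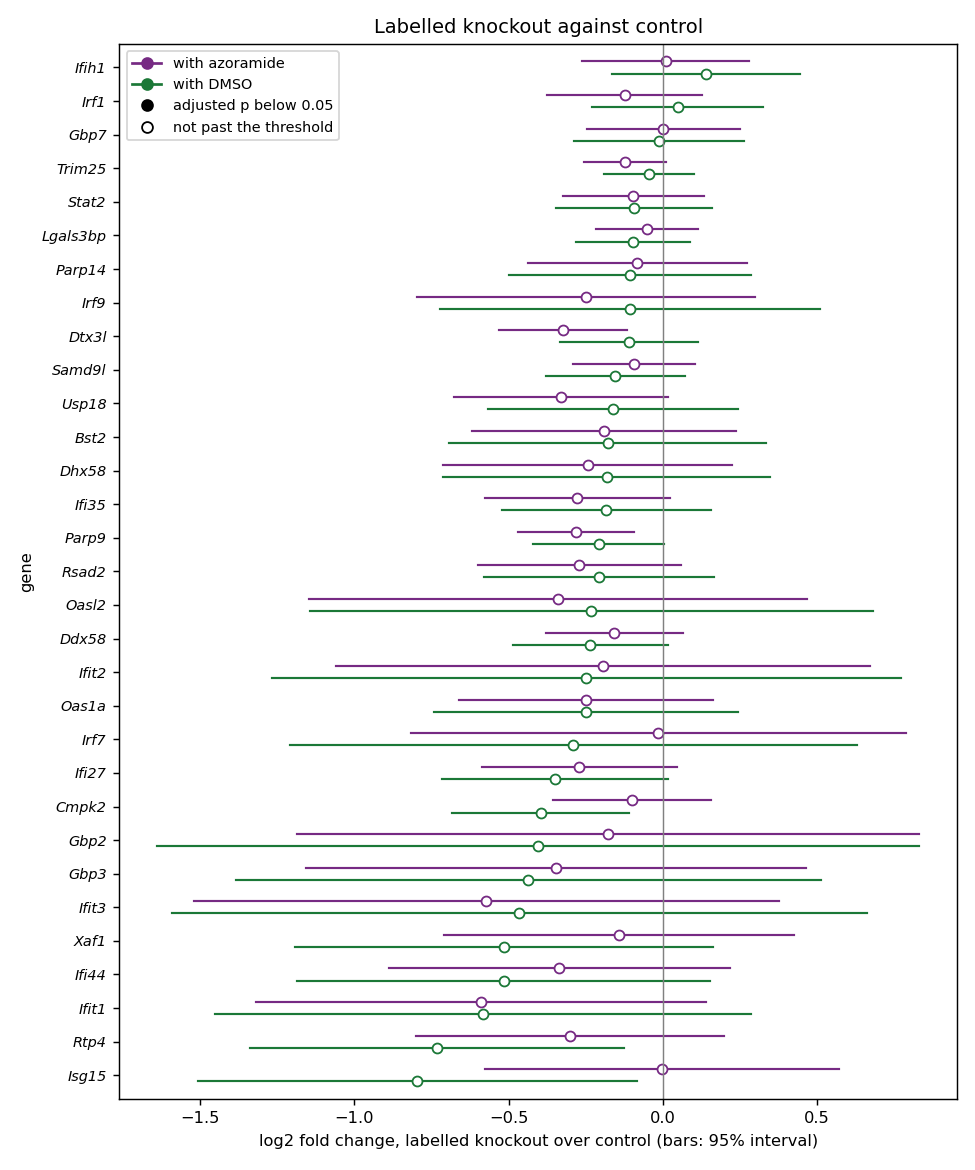
Log2 fold change of labelled knockout over control for each of the 31 genes (horizontal axis), with 95% intervals, with azoramide (upper of each pair) and with DMSO (lower). Most points lie left of 0, Isg15 with DMSO lies farthest left at -0.80, and none has an adjusted p below 0.05.

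The azoramide effects in the 2 genotypes were set against each other by the interaction, the change in labelled knockout islets minus that in control islets. Its median over the 31 was 0.00088, but this moved with single libraries. It was -0.19 without labelled knockout azoramide library 2, 0.15 without its library 3, 0.14 without labelled knockout DMSO library 1, -0.12 without its library 2, 0.090 without control DMSO library 1 and -0.11 without its library 3. The member farthest from 0 was Isg15 (0.79, SE 0.43, adjusted p = 0.999), whose 95% interval ran from -0.12 to 1.70. Rtp4 (0.43, SE 0.35, adjusted p = 0.999) and Xaf1 (0.37, SE 0.40, adjusted p = 0.999) followed on the positive side and Dtx3l (-0.21, SE 0.14, adjusted p = 0.999) on the negative side. For Bst2 the difference was -0.012, SE 0.30, adjusted p = 0.999, with an interval from -0.68 to 0.66, and for Ifit1 it was -0.0063, SE 0.49, adjusted p = 0.999, from -1.15 to 1.14.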

How the data were processed

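RNA-seq counts per gene for 11 islet libraries were deposited by the authors as a table of raw counts, 1 column per library, with no normalization; all columns were matched to sample titles. The submitters' processing notes name STAR 2.7.2a, mm10 and DESeq2 without saying which made the table; which tool counted the reads, on what annotation and whether by strand, is not given in the sources used here. Libraries held 16832800 to 19501813 counts and 17687 to 17999 detected genes, which limits the precision of genes with few reads.

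The counts were fitted with edgeR 4.0.16 in R 4.3.3: filterByExpr, TMM scaling, and the robust quasi-likelihood test with all 11 libraries in 1 fit of 4 groups and no covariate, so that all groups share 1 estimate of the spread. The p-values were adjusted by Benjamini and Hochberg over all 15093 genes, with 0.05 as the threshold. CPM are counts scaled to a common library size by TMM, and log2 fold changes are those of the fit. Exonic lengths and GC content came from GENCODE M21 on GRCm38, the same assembly as mm10, for 32158 IDs, and promoters from RefSeq on GRCm38.p6. The steps were tested on simulated data.

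The genes and lists were chosen with earlier results of these data known. All members are accounted for in each comparison; values in every library are given for members called with azoramide in either genotype and for the highest of each role per kilobase. Of each pathway list up to 4 genes of smallest p in each azoramide comparison were named, and the Ifit, Oas, Gbp and Irf relatives whatever their result. A further gene of these lists is not reported here by name. Alternatives were DESeq2 1.42.0, its size factors, plain library totals, other filters on low counts, fits of only the groups compared, the replicate number as a block, an offset for length and GC content, and leaving out each library. Libraries of the same number did not deviate together, so the numbers were not taken to pair them. So few libraries per group cannot exclude that they are paired.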

Additional observations from a re-analysis of the deposited data

How the results depend on the processing

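Of the 26 calls of members with azoramide, 10 held in all 20 alternatives and 19 in at least 15; of 36 that were not called, 18 were called in at least 1 alternative. The count of all genes called with azoramide was, with an offset for gene length and GC content, 3669 in labelled knockout islets and 3424 in control islets, against 6006 in labelled knockout islets and 5893 in control islets without it. The 11 members called higher in labelled knockout islets became 6 with the offset, 7 with only the groups compared, 6 with plain library totals and 4 to 15 with each library left out. The 11 in control islets became 7 with the offset, 17 with only the groups compared, 6 with plain totals and 6 to 17 with each library left out, and the 2 called lower became 5 with plain totals and 1 to 3 with a library left out. Over all genes plain totals gave 1866 higher in labelled knockout islets and 1628 in control islets, against 3014 and 2908 with TMM. Called lower in control islets were then 4943, against 2985 with TMM. With each library left out all genes gave 2074 to 3264 higher in labelled knockout islets. In control islets they gave 2398 to 3006 higher and 2413 to 3097 lower. Fits of only the groups compared gave 3089 higher in labelled knockout islets and 2823 in control islets.

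Between the genotypes no member was called in any alternative. Of all genes, DESeq2 called 2 with azoramide and 3 with DMSO, no filter on low counts gave 2 with DMSO, and leaving out control DMSO library 2 together with labelled knockout azoramide library 3 gave 84 with azoramide, 2 with DMSO and 6 in the interaction. With each library left out these counts ran from 0 to 3 with azoramide, 0 to 3 with DMSO and 0 to 1 in the interaction. The interaction compares all 4 groups, so a fit of only the groups compared is the one reported. The cause of these changes was not tested.

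With the replicate number as a block, 9 members were called higher and 2 lower in each genotype, and 1 gene between the genotypes with DMSO. Of all 15093 genes the block gave 3027 higher and 3020 lower with azoramide in labelled knockout islets. In control islets it gave 2883 higher and 2956 lower. The calls of Ddx58 and Ifit1 in labelled knockout islets and of Ifit1 and Rsad2 in control islets were not made with it. Deviations of libraries with the same number had correlations of -0.14 to 0.17, and the numbers were not taken to pair the samples. With so few libraries per group this does not exclude pairing. The block joined equal numbers across genotypes, so pairing within a genotype was not fitted.

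Changes of direction occurred only among members that passed in neither setting. In labelled knockout islets the offset gave -0.18 for Gbp7, -0.0076 for Cmpk2 and -0.010 for Ifi35, and plain totals -0.14 for Gbp7 and -0.026 for Cmpk2. With each library left out Irf9 ran from -0.17 to 0.33, Dhx58 from -0.077 to 0.44, Oasl2 from -0.25 to 0.49, Gbp7 from -0.13 to 0.16 and Cmpk2 from -0.065 to 0.35. In control islets Irf1 was at -0.17 with plain totals, at -0.15 without the pair of libraries named above, and at -0.15 to 0.14 with each library left out. Gbp7 was there at 0.0048 with DESeq2 and with its size factors, 8.7e-05 with no filter, 0.0040 with only the groups compared, and -0.0599 to 0.0636 with each library left out. Depth limits Isg15 and Ifi44 above all, with 31 and 45 reads in their lowest libraries.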
